A study of Mus musculus with 9 samples.

Results

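The 10 genes described here make and use glutathione or are well known targets of the transcription factor NRF2, and they were taken from 54059 genes measured in mouse peritoneal macrophages. They are *Gclc*, *Gclm*, *Slc7a11*, *Gsr*, *Gsto1*, *Txnrd1*, *Srxn1*, *Hmox1*, *Nqo1* and *Nfe2l2*, the gene of NRF2 itself. The list was chosen by name, and partly because *Gsto1* rises with SHP099. For this reason *Gsto1* is described without a test wherever SHP099 libraries are compared. All 10 genes passed the filter on low values, as did 11450 genes in all.

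Macrophages were collected from C57BL/6 mice, labelled as 8 weeks old, 3 days after an intraperitoneal injection of 1 ml of starch broth, and RNA of the adherent cells was sequenced in 3 groups of 3 libraries. The labels give the genotypes, and the methods of the study give the treatments. Wild-type cells received imiquimod (IMQ), an agonist of the receptor TLR7, at 10 µg/ml for 4 h. M-Shp2-/- cells (labelled SHP2lyz2-/-), in which a Cre driven by *Lyz2* deletes floxed *Ptpn11*, the gene of the phosphatase SHP2, in myeloid cells, also received IMQ for 4 h, at a concentration not stated for them. The SHP099 group was wild-type cells given 10 µM SHP099, an allosteric inhibitor of SHP2, for 2 h and then 10 µg/ml IMQ for 4 h. The sources do not say that each library came from a separate animal, so that p values measure the spread between these samples. Both comparisons with wild type share the same 3 control libraries. Values are FPKM (reads scaled to transcript length and library depth), and the depth recovered from them was 39843043 to 50981087 reads per library.

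NRF2 is kept at a low level by KEAP1, which marks it for degradation. Oxidants and electrophiles release it, and it then binds antioxidant response elements beside genes of thiol and heme metabolism, so that its activity is set largely through the stability of the protein. In macrophages its targets supply cystine and glutathione, return oxidised glutathione and thioredoxin to their reduced forms, and degrade heme.

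*Ptpn11* served as a check of the genotype. Its FPKM was 45.8, 44.0 and 40.0 in wild-type, 18.6, 17.8 and 18.9 in M-Shp2-/- and 43.0, 42.1 and 39.6 in SHP099 libraries. All 3 M-Shp2-/- libraries were below all others. *Ptpn11* fell in M-Shp2-/- against wild type, with a difference in log2(FPKM + 1) of -1.19 (standard error 0.10, limma adjusted p = 0.0168). With each library left out in turn the difference lay between -1.24 and -1.15 and the adjusted p between 0.0420 and 0.196.

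Single libraries stood apart within their groups. Across the tested genes, which are not independent replicates, M-Shp2-/- replicate 3 had a Pearson correlation of log2 values of 0.967 and 0.954 with replicates 1 and 2 of its group, which correlated at 0.992, and of 0.984 with SHP099 replicate 1. Wild-type replicate 1 correlated at 0.988 with M-Shp2-/- replicate 2 and at 0.984 and 0.976 with its own group. Wild-type replicate 3 correlated at 0.978 with SHP099 replicate 3 and at 0.976 and 0.974 with its own group. SHP099 libraries correlated at 0.988 to 0.991 with each other. Several results that rest on single libraries are given with and without them.

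Markers of other cells also differed between libraries. The summed FPKM of 5 fibroblast markers, of which *Col1a1* was the most abundant, was 63.8, 302 and 39.7 in wild-type, 135, 51.4 and 585 in M-Shp2-/- and 361, 137 and 101 in SHP099 libraries. M-Shp2-/- replicate 3, SHP099 replicate 1 and wild-type replicate 2 were the highest, and the groups overlapped. In both comparisons with wild type the 5 fibroblast markers were above zero, beside 77.4% of all genes in M-Shp2-/- and 71.2% with SHP099. Of these 5 markers 0 passed an adjusted p of 0.05 in limma. The 6 macrophage markers, led by *Lyz2*, summed to 9414, 12030.1 and 9688 in wild-type, 6889, 6878 and 7188 in M-Shp2-/- and 11007, 12069.8 and 12557 in SHP099 libraries. M-Shp2-/- libraries were the lowest in this sum, most of which is *Lyz2*, the gene that also drives the Cre. The other 5 summed to 1974, 1802 and 1737 in wild-type, 2026, 2136 and 1782 in M-Shp2-/- and 1659, 1789.8 and 1842 in SHP099 libraries, most of which is *Cd68*, and the groups overlapped. With SHP099 3 of the 6 macrophage markers were above zero, beside 71.2% of all genes, and 1 passed an adjusted p of 0.05. This was *Csf1r*, which rose by a log2 difference of 1.38 (limma adjusted p = 0.0222, up to 0.116 with each library left out and 0.0628 with median-of-ratios scaling), with an FPKM of 58.2, 67.8 and 111 in wild-type, 87.4, 71.8 and 176 in M-Shp2-/- and 181, 211 and 206 in SHP099 libraries. *Adgre1* differed by -0.40 (adjusted p = 0.246) and *Cd68* by -0.14 (adjusted p = 0.395). With each library left out *Adgre1* lay between -0.56 and -0.22, and *Cd68* between -0.18 and -0.07. In M-Shp2-/- against wild type 2 of the 6, *Cd68* and *Csf1r*, were above zero, beside 77.4% of all genes, and 0 passed. *Mertk* had the largest difference there (-0.97, adjusted p = 0.454), with all M-Shp2-/- libraries below all wild-type libraries. T cell markers, led by *Cd3g*, summed to 0.765, 2.09 and 4.84 in wild-type, 0.824, 0.498 and 2.76 in M-Shp2-/- and 5.60, 4.31 and 4.18 in SHP099 libraries. Mast cell markers, led by *Tpsb2* and with *Fcer1a* at 0 in every library, summed to 1.59, 3.79 and 4.82 in wild-type, 1.36, 0.252 and 1.43 in M-Shp2-/- and 0.320, 0.279 and 0.614 in SHP099 libraries. Sums were 22.8 to 43.5 for resident peritoneal macrophage markers (led by *Cd5l*), 42.1 to 103 for neutrophil markers (*S100a8*), and at most 8.97 for mesothelial (*Wt1*), 1.83 for dendritic cell (*Zbtb46*) and 1.64 for erythroid markers (*Hbb-bs*). Fewer cells of a type and less RNA per cell cannot be told apart in bulk samples, and the part of these cells in the results for the 10 genes was not tested.

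By mean FPKM over the 9 libraries, a level per transcript length, *Hmox1* was the highest of the 10 genes at 739.7, followed by *Txnrd1* at 522, *Slc7a11* at 457, *Srxn1* at 414, *Nfe2l2* at 205, *Gsr* at 199, *Gclm* at 131, *Gsto1* at 112 and *Gclc* at 45.0. *Nqo1* was the lowest at 5.69, with 87.0 to 715 reads per library. In 8 of the 9 genes other than *Gsto1* the mean was lowest in wild-type, intermediate in M-Shp2-/- and highest in SHP099 libraries. This order held in 32.8% of all tested genes, and *Nfe2l2* was the exception. The genes share the same libraries and are not independent. Without wild-type replicate 3 only *Slc7a11* of these 8 fell below wild type, with log2 differences of -0.03 in M-Shp2-/- and -0.01 in SHP099 libraries.

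**Figure D1:**
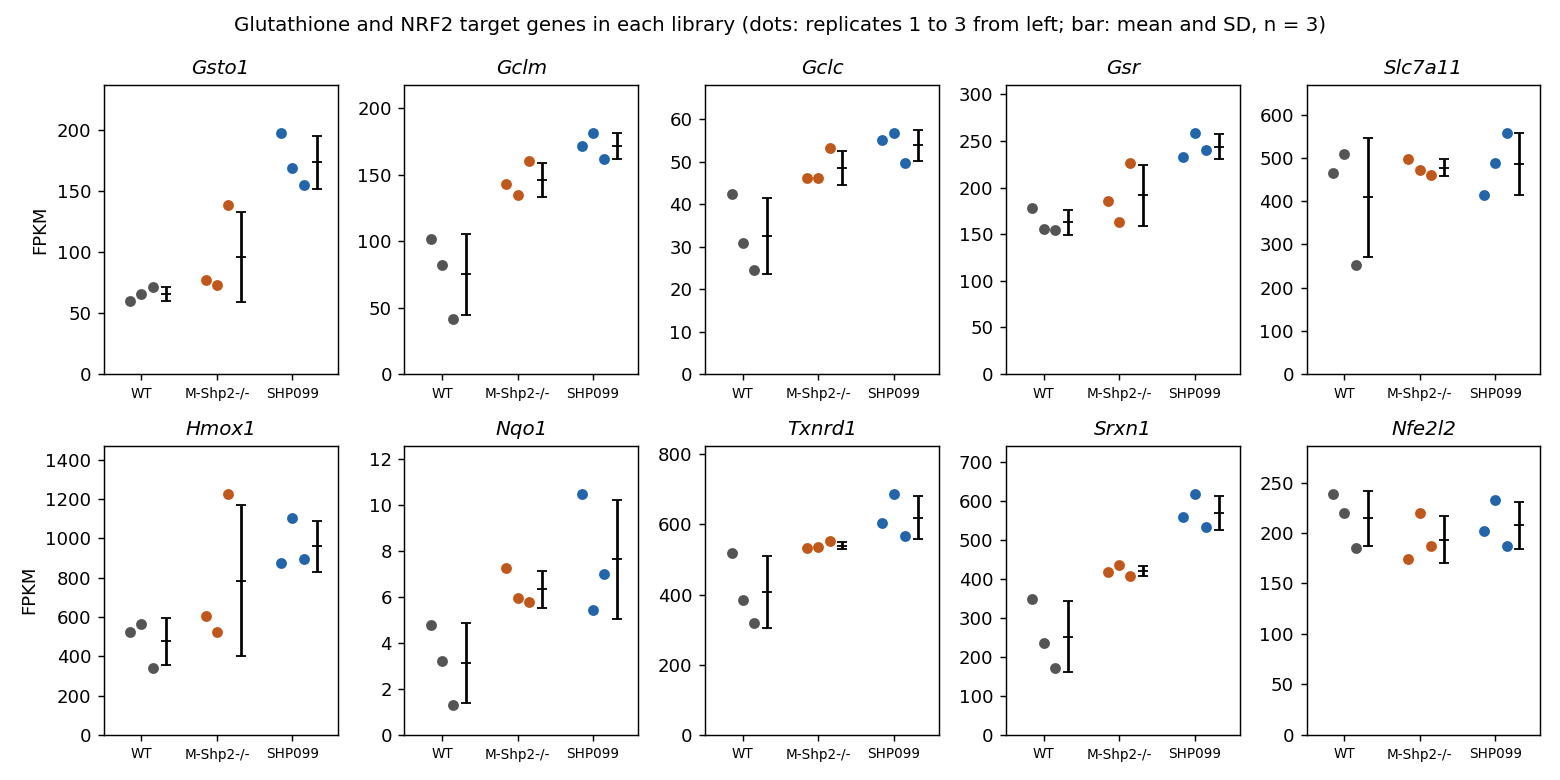
FPKM of the 10 genes in each library, by group, with each gene on its own axis; dots are replicates 1 to 3 from left to right, and bars show the mean and SD (n = 3). In *Srxn1* the SHP099 libraries (531 to 617) lie above the M-Shp2-/- libraries (408 to 435), and these above the wild-type libraries (172 to 349).

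*Gsto1* (ENSMUSG00000025068, chromosome 19, 47854970 to 47864790 of GRCm38) encodes an omega-class glutathione transferase. Its FPKM was 59.9, 65.6 and 71.3 in wild-type, 77.0, 72.8 and 138 in M-Shp2-/- and 197, 169 and 155 in SHP099 libraries. M-Shp2-/- replicates 1 and 2 lay just above the wild-type libraries, replicate 3 was nearer to the SHP099 libraries, and the 3 groups did not overlap. The means were 65.6 ± 5.71, 96.1 ± 36.7 and 174 ± 21.8 for wild type, M-Shp2-/- and SHP099 (SD, n = 3 each). SHP099 minus wild type was 1.39 on the log2 scale, and 1.29 to 1.47 with each library left out. M-Shp2-/- minus SHP099 was -0.90, and -1.19 to -0.74 with each library left out, the first without M-Shp2-/- replicate 3. For M-Shp2-/- against wild type, which the choice did not use but which shares its wild-type libraries, the difference was 0.48 (95% interval -0.10 to 1.07, limma adjusted p = 0.485), and 0.19 without M-Shp2-/- replicate 3.

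Glutamate-cysteine ligase makes the first bond of glutathione, and *Gclm* (ENSMUSG00000028124, chromosome 3, 122245557 to 122270732) encodes its modifier subunit. Its FPKM was 102, 82.1 and 41.7 in wild-type, 143, 135 and 161 in M-Shp2-/- and 172, 181 and 162 in SHP099 libraries (means 75.1 ± 30.5, 146 ± 13.1 and 172 ± 9.87). All M-Shp2-/- and SHP099 libraries were above all wild-type libraries, among which replicate 3 was the lowest. *Gclc*, the catalytic subunit, had an FPKM of 42.3, 30.8 and 24.6 in wild-type, 46.2, 46.2 and 53.3 in M-Shp2-/- and 55.2, 56.8 and 49.8 in SHP099 libraries (means 32.6 ± 8.99, 48.6 ± 4.09 and 53.9 ± 3.67). Its wild-type libraries were likewise below all others, whereas M-Shp2-/- and SHP099 libraries overlapped. Exons of *Gclm* overlap *Gm17494* on the opposite strand, which had a mean FPKM of 0.22, and the sources used here do not give the strand of counting.

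*Slc7a11*, the light chain of the cystine importer, had an FPKM of 466, 509 and 252 in wild-type, 498, 472 and 460.2 in M-Shp2-/- and 413, 488 and 557 in SHP099 libraries (means 409 ± 138, 477 ± 19.4 and 486 ± 72.0). The groups overlapped, and wild-type replicate 3 was the lowest of the 9 libraries. *Gsr*, which reduces oxidised glutathione with NADPH, had an FPKM of 178, 155 and 154 in wild-type, 185, 163 and 227 in M-Shp2-/- and 232, 258 and 240.2 in SHP099 libraries (means 163 ± 13.4, 191 ± 32.5 and 244 ± 13.3). Its SHP099 libraries were above all others, and M-Shp2-/- and wild-type libraries overlapped.

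*Srxn1* (ENSMUSG00000032802, chromosome 2, 152105516 to 152111376) encodes sulfiredoxin, which restores over-oxidised peroxiredoxins. Its FPKM was 349, 234 and 172 in wild-type, 417, 435 and 408 in M-Shp2-/- and 559, 617 and 531 in SHP099 libraries (means 252 ± 90.0, 420.0 ± 13.6 and 569 ± 43.8), and the 3 groups did not overlap. *Txnrd1*, the cytosolic thioredoxin reductase, had an FPKM of 519, 385 and 318 in wild-type, 532, 536 and 551 in M-Shp2-/- and 603, 687 and 567 in SHP099 libraries (means 407 ± 102, 539.6 ± 10.3 and 619 ± 61.5). Its groups did not overlap either, although wild-type replicate 1 was close to the M-Shp2-/- libraries.

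*Hmox1* (ENSMUSG00000005413, chromosome 8, 75093621 to 75100589), the inducible heme oxygenase, had an FPKM of 525, 563 and 341 in wild-type, 606, 523 and 1226 in M-Shp2-/- and 873, 1105 and 897 in SHP099 libraries (means 476 ± 119, 785 ± 384 and 958 ± 128). M-Shp2-/- replicate 3 was the highest of the 9 libraries, and replicates 1 and 2 were near the wild-type libraries. *Nqo1*, a quinone reductase, had an FPKM of 4.79, 3.22 and 1.32 in wild-type, 7.26, 5.96 and 5.76 in M-Shp2-/- and 10.5, 5.43 and 7.01 in SHP099 libraries (means 3.11 ± 1.74, 6.33 ± 0.814 and 7.64 ± 2.59). Wild-type libraries were below the others. *Nfe2l2* had an FPKM of 239, 219.9 and 185 in wild-type, 174, 219.8 and 187 in M-Shp2-/- and 203, 233 and 187 in SHP099 libraries (means 215 ± 27.3, 194 ± 23.7 and 208 ± 23.2), and all groups overlapped.

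**Figure D2:**
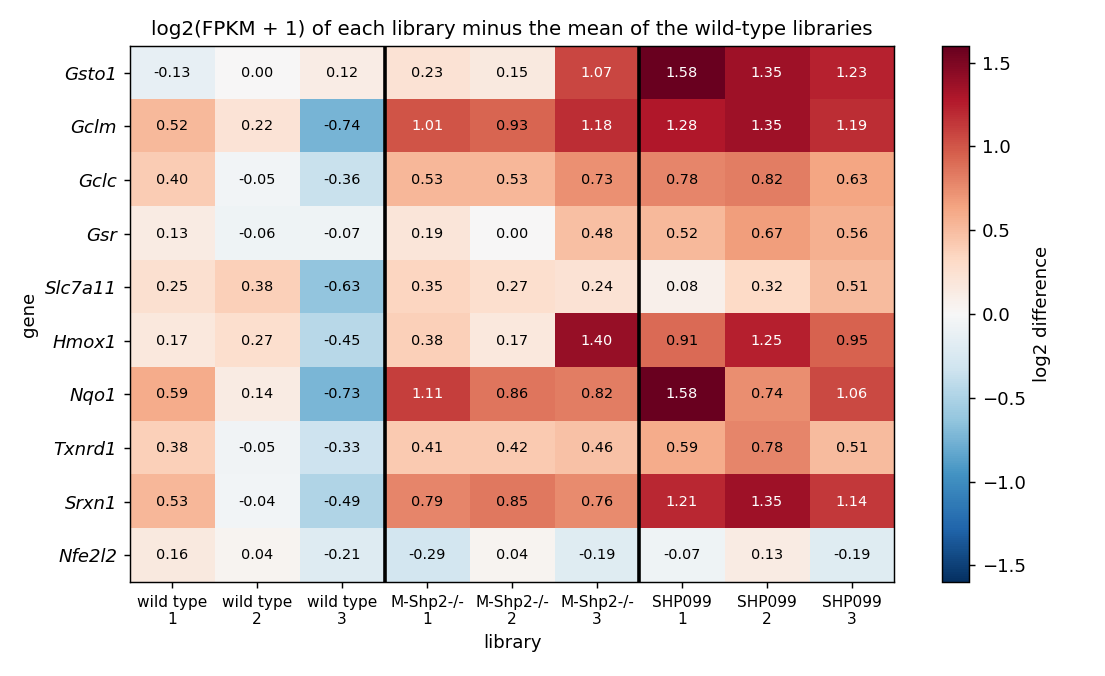
Each cell is the log2(FPKM + 1) of a gene in a library minus the mean of the 3 wild-type libraries. M-Shp2-/- replicate 3 stands out in *Gsto1* (1.07) and *Hmox1* (1.40), and wild-type replicate 3 is below the wild-type mean in *Gclm* (-0.74) and *Nqo1* (-0.73).

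Promoters are shown for *Gsto1*, *Gclm* and *Srxn1*, which had the largest log2 differences between SHP099 and wild-type libraries among the 10 genes. RefSeq promoters (GRCm38.p6, 250 bases before to 50 after the start) were matched for 7 of the 10 genes, in 9 windows, and not for *Gclc*, *Gsr* and *Hmox1*. The core of the antioxidant response element, TGACNNNGC, was searched on both strands. It was found in 12.4% of all 32851 promoters and in 14.6% of the 10542 promoters of tested genes. Of the 9 windows 4 held it, those of *Gclm*, *Srxn1*, *Nfe2l2* and 1 of 3 of *Txnrd1*. A match is a description, not a site or a cause. Capitals mark it in *Gclm* (chr3:122245307-122245606, plus strand), where it begins 134 bases before the start, and in *Srxn1* (chr2:152105274-152105573, plus strand), where it begins 28 bases after it, in both on the other strand. The *Gsto1* window (chr19:47854723-47855022, plus strand) does not hold these letters.
Gsto1: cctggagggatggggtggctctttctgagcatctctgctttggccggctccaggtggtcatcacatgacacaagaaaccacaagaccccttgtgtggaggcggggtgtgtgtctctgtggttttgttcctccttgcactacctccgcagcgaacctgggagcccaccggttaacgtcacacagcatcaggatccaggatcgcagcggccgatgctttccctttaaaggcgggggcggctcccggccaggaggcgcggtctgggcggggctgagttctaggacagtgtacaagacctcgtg
Gclm: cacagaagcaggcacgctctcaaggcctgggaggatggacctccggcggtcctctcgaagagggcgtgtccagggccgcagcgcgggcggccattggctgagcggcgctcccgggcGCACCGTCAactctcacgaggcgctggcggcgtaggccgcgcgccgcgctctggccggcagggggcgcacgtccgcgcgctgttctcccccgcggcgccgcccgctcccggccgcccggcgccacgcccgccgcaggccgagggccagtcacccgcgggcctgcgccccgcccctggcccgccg
Srxn1: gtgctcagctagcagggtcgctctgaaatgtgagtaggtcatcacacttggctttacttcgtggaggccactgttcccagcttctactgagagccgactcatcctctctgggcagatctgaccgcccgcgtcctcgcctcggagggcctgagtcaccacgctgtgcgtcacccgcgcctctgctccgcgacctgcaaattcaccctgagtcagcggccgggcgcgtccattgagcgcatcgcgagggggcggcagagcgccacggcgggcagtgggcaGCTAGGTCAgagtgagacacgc

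The comparison of SHP099 with wild type asks how wild-type macrophages given SHP099 before IMQ differ from those given IMQ alone. Whether a difference came through SHP2 was not tested. *Gclm*, *Srxn1*, *Hmox1* and *Gsr*, genes of glutathione synthesis, peroxiredoxin repair, heme degradation and glutathione reduction, rose, each with 3 of 3 SHP099 libraries above all wild-type libraries. On the log2 scale *Gclm* rose by 1.27 (95% interval 0.58 to 1.97, limma adjusted p = 0.0490). *Srxn1* rose by 1.23 (0.68 to 1.79, adjusted p = 0.0322), *Hmox1* by 1.03 (0.56 to 1.50, adjusted p = 0.0325) and *Gsr* by 0.58 (0.37 to 0.79, adjusted p = 0.0192). For *Nqo1* the difference was 1.13 (adjusted p = 0.104), for *Gclc* 0.74 (adjusted p = 0.0566) and for *Txnrd1* 0.63 (adjusted p = 0.0795), and these did not pass. *Slc7a11* differed by 0.30 (95% interval -0.32 to 0.93) and *Nfe2l2* by -0.05 (-0.34 to 0.25), with overlapping groups.

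Thus 4 of the 9 genes other than *Gsto1* passed an adjusted p of 0.05, all higher, beside 4.55% of all tested genes that were higher and 6.96% in either direction. At the thresholds of the study, an adjusted p of 0.005 and an absolute log2 fold change of 1, 0 of the 9 were called in limma and 0 with voom, beside 0.166% of all genes. At an unadjusted p under 0.05 there were 7, beside 26.7%. In 7 of the 9 genes all SHP099 libraries were above all wild-type libraries, beside 27.9% of all genes.

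The calls of *Gclm*, *Srxn1*, *Hmox1* and *Gsr* were lost without the filter on low values, where 0 of the 9 genes and 96 of all genes passed. They were also lost when any 1 SHP099 library was left out. Without SHP099 replicate 1, 2 or 3, 0 of the 9 genes passed, and 90, 47 and 116 of all genes did instead of 797. In these 3 settings the differences were 1.27, 1.23 and 1.31 for *Gclm*, 1.24, 1.17 and 1.28 for *Srxn1*, 1.10, 0.93 and 1.08 for *Hmox1* and 0.61, 0.54 and 0.59 for *Gsr*. Without wild-type replicate 1, 2 or 3, 5, 2 and 4 of the 9 passed, and 284, 399 and 1273 of all genes. Across all 6 settings the difference of *Gclm* lay between 0.90 and 1.53 (adjusted p 0.0118 to 0.188), and that of *Srxn1* between 0.99 and 1.50 (0.0183 to 0.147). *Hmox1* lay between 0.81 and 1.17 (0.0169 to 0.148) and *Gsr* between 0.54 and 0.65 (0.0201 to 0.110).

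The median log2 difference of all tested genes was 0.13, and median-of-ratios scaling moved it to -0.01. Relative to the median of all genes, *Gclm* was higher by 1.14, *Srxn1* by 1.10, *Hmox1* by 0.91 and *Gsr* by 0.45. With that scaling 172 of all genes were higher and 339 lower at an adjusted p of 0.05, against 521 and 276 without it. *Srxn1* (adjusted p = 0.0355) and *Hmox1* (0.0367) still passed, and *Gclm* (0.0540) and *Gsr* (0.0708) did not.

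**Figure D3:**
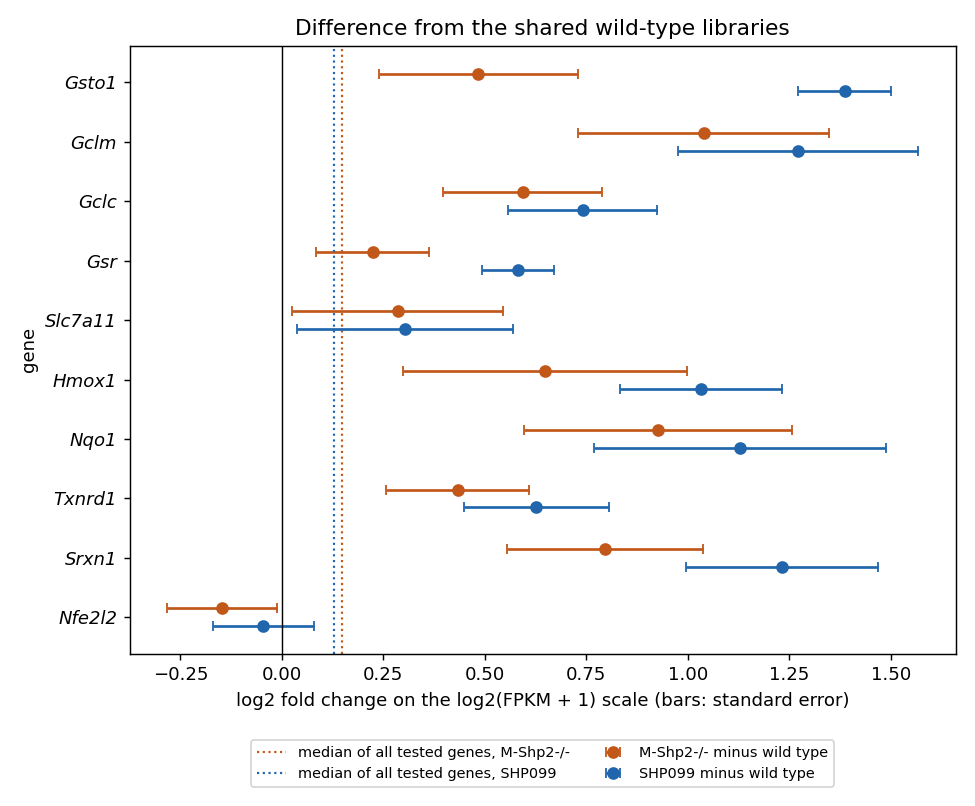
Log2 difference of the 10 genes from the shared wild-type libraries, with standard errors as bars and the median of all tested genes as dotted lines (0.15 for M-Shp2-/- and 0.13 for SHP099). The SHP099 value of *Gsto1* is a description, and *Nfe2l2* is below zero in both comparisons.

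The comparison of M-Shp2-/- with wild type asks what deletion of *Ptpn11* does in IMQ-treated macrophages, with the concentration of IMQ unstated for M-Shp2-/- cells. The mean FPKM of *Ptpn11* was 18.4 in M-Shp2-/- and 43.3 in wild-type libraries, so that part of its mRNA remained. RNA libraries do not measure SHP2 protein. Of the 9 genes other than *Gsto1*, 8 had a higher mean in M-Shp2-/- libraries, as did 8864 of all 11450 tested genes (77.4%), and *Nfe2l2* had a lower mean. None of the 10 genes passed an adjusted p of 0.05 in limma (0) or with voom (0), beside 10 of all genes (0.0873%), and 0 were called at the thresholds of the study, beside 0.00873%. At an unadjusted p under 0.05 there were 5 of the 10, *Gsto1* not among them, beside 10.5% of all genes. With each library left out these were 3 to 5 genes, and 469 to 2280 of all genes instead of 1204. In 5 of the 9 genes other than *Gsto1*, which were *Gclm*, *Gclc*, *Nqo1*, *Txnrd1* and *Srxn1*, all M-Shp2-/- libraries were above all wild-type libraries, beside 16.0% of all genes.

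The largest differences among the 10 genes were in *Gclm*, 1.04 (95% interval 0.30 to 1.78, limma adjusted p = 0.454), *Nqo1*, 0.93 (0.14 to 1.71, adjusted p = 0.465), and *Srxn1*, 0.80 (0.22 to 1.37, adjusted p = 0.454). *Hmox1* differed by 0.65 (-0.19 to 1.48), *Gclc* by 0.59 (0.13 to 1.06) and *Txnrd1* by 0.43 (0.01 to 0.85). *Slc7a11* differed by 0.29 (-0.33 to 0.90), *Gsr* by 0.22 (-0.11 to 0.56) and *Nfe2l2* by -0.15 (-0.47 to 0.18). The median of the 9 genes other than *Gsto1* was 0.59, beside 0.15 over all tested genes, and with median-of-ratios scaling these were 0.42 and -0.01. Relative to the median of all genes, *Gclm* differed by 0.89, *Srxn1* by 0.65, *Gsr* by 0.08 and *Nfe2l2* by -0.29. Without M-Shp2-/- replicate 3, *Hmox1* differed by 0.27 and *Gsr* by 0.10, whereas *Gclm* differed by 0.97 and *Srxn1* by 0.82. Without wild-type replicate 3, the values were 0.67 for *Gclm*, 0.56 for *Nqo1*, 0.55 for *Srxn1*, 0.42 for *Hmox1*, 0.27 for *Txnrd1* and -0.03 for *Slc7a11*.

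M-Shp2-/- and SHP099 libraries were then compared directly, which sets deletion of *Ptpn11* in myeloid cells beside SHP099 given to wild-type cells. All 9 genes other than *Gsto1* were lower in M-Shp2-/- libraries by their mean log2 values, beside 46.8% of all tested genes. In limma 0 of the 9 passed an adjusted p of 0.05, and 0 with voom, beside 8 of all tested genes (0.0699%), and 0 genes (0.0%) met the thresholds of the study. At an unadjusted p under 0.05 there were 3 of the 9, beside 12.6% of all genes, and with each library left out 1 to 5 of the 9 and 759 to 4127 of all genes instead of 1437. In 4 of the 9, *Gclm*, *Gsr*, *Txnrd1* and *Srxn1*, all M-Shp2-/- libraries were below all SHP099 libraries, beside 9.76% of all genes. M-Shp2-/- minus SHP099 was -0.44 for *Srxn1* (95% interval -0.63 to -0.24, adjusted p = 0.196), -0.38 for *Hmox1* (-1.12 to 0.36), -0.36 for *Gsr* (-0.66 to -0.05) and -0.23 for *Gclm* (-0.45 to -0.02).

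These counts depended on M-Shp2-/- replicate 3. Without it, 2277 of all genes passed an adjusted p of 0.05 instead of 8, and 4 of the 9 genes passed, all lower in M-Shp2-/- libraries, where 1374 of all genes were higher and 903 lower. *Hmox1* differed by -0.76 (limma adjusted p = 0.0114), *Gsr* by -0.49 (0.0121), *Srxn1* by -0.41 (0.0187) and *Gclm* by -0.30 (0.0324). With the other libraries left out in turn 0 of the 9 passed, and the adjusted p reached 0.947 for *Hmox1*, 0.767 for *Gsr*, 0.693 for *Srxn1* and 0.773 for *Gclm*.

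Other genes of the same pathways were taken from 8 lists, in which 99 of 126 genes beyond the 10 were tested. With SHP099 11 of the 99 rose and 2 fell at an adjusted p of 0.05, beside 4.55% and 2.41% of all genes, and their median log2 difference from wild type was 0.29, beside 0.13 over all genes. With median-of-ratios scaling the median was 0.14, beside -0.01, and 4 rose and 2 fell, beside 172 and 339 of all 11450 genes. Without that scaling, 0 passed when any 1 of the SHP099 libraries was left out, beside 47 to 116 of all genes. Without wild-type replicate 3, 24 passed, beside 1273 of all genes. Without the filter on low values 1 passed, beside 96 of all genes. In M-Shp2-/- against wild type 0 of the 99 passed in limma and 0 with voom, with 20 at an unadjusted p under 0.05, beside 10.5% of all genes, and a median of 0.23, beside 0.15. These 20 became 14 with median-of-ratios scaling, beside 917 of all genes, where the median was 0.07, beside -0.01. With each library left out they were 9 to 27, beside 469 to 2280 of all genes. Between M-Shp2-/- and SHP099 0 passed in limma and 0 with voom, with 20 at an unadjusted p under 0.05, beside 12.6% of all genes. With each library left out these 20 became 11 to 45, beside 759 to 4127 of all genes. Without M-Shp2-/- replicate 3, 11 were higher and 20 lower in M-Shp2-/- libraries, beside 1374 and 903 of all genes.

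**Figure D4:**
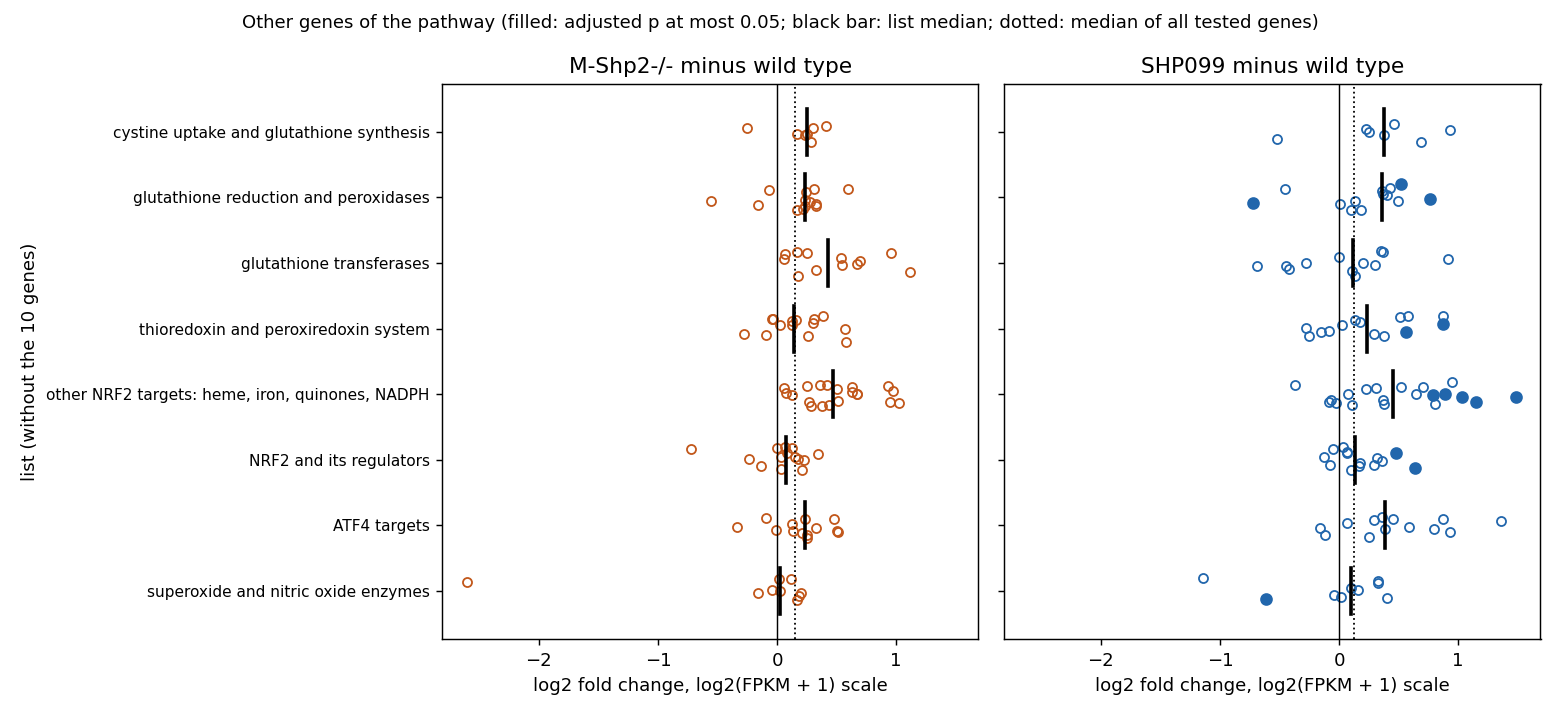
Log2 difference from wild type of each tested gene of the 8 lists, without the 10 genes, in M-Shp2-/- and SHP099 libraries; filled dots have an adjusted p of at most 0.05, black bars are list medians and dotted lines the median of all tested genes. Filled dots appear for SHP099, with 5 of 20 genes in the list of heme, iron, quinone and NADPH genes.

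Of 20 tested NRF2 targets of heme, iron, quinone and NADPH metabolism, 5 rose with SHP099, 0 fell and 15 did not pass. Of all genes 4.55% rose and 2.41% fell. *Cbr3*, a carbonyl reductase, rose by 1.49 (limma adjusted p = 0.0258), the heme transporter *Slc48a1* by 1.15 (adjusted p = 0.0251) and the autophagy receptor *Sqstm1*, which binds KEAP1, by 1.03 (adjusted p = 0.0206). *Pgd* of the pentose phosphate pathway rose by 0.89 (adjusted p = 0.0472) and the biliverdin reductase *Blvrb* by 0.79 (adjusted p = 0.0269). With median-of-ratios scaling *Cbr3* and *Slc48a1* passed, and *Sqstm1*, *Pgd* and *Blvrb* had an adjusted p of 0.0814, 0.0593 and 0.0597. *Sqstm1* had an FPKM of 2290.3, 2043 and 2994 in wild-type, 2427, 2451 and 5879 in M-Shp2-/- and 5048, 5257 and 4519 in SHP099 libraries, with M-Shp2-/- replicate 3 above the SHP099 libraries and replicates 1 and 2 within the range of wild type. The most abundant gene of the list was the ferritin heavy chain *Fth1*, with 17434 to 20040.1 FPKM. It differed by 0.07 with SHP099 and 0.08 in M-Shp2-/- libraries, and by -0.08 and -0.10 with median-of-ratios scaling. In M-Shp2-/- against wild type 20 of the 20 genes were above zero, beside 77.4% of all genes, and 17 with median-of-ratios scaling, beside 47.3%. Their median was 0.47, beside 0.15 over all genes (0.30 and -0.01 with that scaling), and the largest value was in *Osgin1* (1.02, adjusted p = 0.412).

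Of 13 tested genes of glutathione reduction and peroxidases, 2 rose with SHP099, 1 fell and 10 did not pass. Of all genes 4.55% rose and 2.41% fell. The glyoxalase *Hagh* rose by 0.76 (limma adjusted p = 0.0107) and *Gpx4*, which reduces lipid hydroperoxides, by 0.52 (adjusted p = 0.0324, 0.154 with median-of-ratios scaling). *Gpx3*, a secreted peroxidase, was the gene that fell (-0.73, adjusted p = 0.0224). *Hagh* had an FPKM of 13.4, 13.9 and 13.1 in wild-type, 13.8, 12.1 and 21.4 in M-Shp2-/- and 23.9, 22.0 and 24.9 in SHP099 libraries, with M-Shp2-/- replicate 3 close to the SHP099 libraries. *Esd*, the most abundant of the list, differed by 0.50 (adjusted p = 0.0519), and *Gpx8* had the largest difference of M-Shp2-/- from wild type (0.59, adjusted p = 0.660, and 0.15 to 1.18 with each library left out).

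In the thioredoxin and peroxiredoxin list 2 of 14 genes rose with SHP099, beside 4.55% of all genes. *Prdx1*, also the most abundant, rose by 0.87 (limma adjusted p = 0.0211), and the methionine sulfoxide reductase *Msrb1* by 0.56 (adjusted p = 0.0359). With median-of-ratios scaling their adjusted p values were 0.0569 and 0.0933.

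Among 14 tested genes of NRF2 and its regulators, 2 rose with SHP099, beside 4.55% of all genes. These were *Mafg*, a small MAF partner of NRF2 (0.64, limma adjusted p = 0.0175), and the kinase *Gsk3b* (0.47, adjusted p = 0.0325, 0.118 with median-of-ratios scaling). *Mafg* shares exon sequence with *Sirt7* on the same strand. *Acod1*, which makes itaconate, a metabolite that modifies KEAP1, was the most abundant of the list. Its FPKM was 981, 1123 and 1789 in wild-type, 641, 633 and 1087 in M-Shp2-/- and 1112, 1097 and 1462 in SHP099 libraries, and it differed by -0.72 in M-Shp2-/- (adjusted p = 0.470) and by -0.05 in SHP099 libraries (adjusted p = 0.918).

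Of 9 tested superoxide and nitric oxide enzymes 1 fell with SHP099, beside 2.41% of all genes. This was *Rac2* of the phagocyte oxidase (-0.62, limma adjusted p = 0.0403). *Cybb*, the catalytic subunit of that oxidase, was the most abundant (0.32, adjusted p = 0.0903). *Nos2*, the inducible nitric oxide synthase, had an FPKM of 45.1, 197 and 324 in wild-type, 11.7, 13.1 and 72.5 in M-Shp2-/- and 57.1, 38.1 and 119.6 in SHP099 libraries. Wild-type replicate 1 was low among the wild-type libraries, and *Nos2* differed by -2.61 in M-Shp2-/- (adjusted p = 0.465) and by -1.15 in SHP099 libraries (adjusted p = 0.364). By these FPKM values, the fall with SHP099 would be much larger without wild-type replicate 1 and much smaller without wild-type replicate 3.

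In the other 3 lists 0 genes passed with SHP099 in limma, beside 6.96% of all genes. In M-Shp2-/- against wild type 0 passed, beside 0.0873%. Of all tested genes 71.2% were above zero with SHP099 and 77.4% in M-Shp2-/- libraries, and 26.7% and 10.5% had an unadjusted p under 0.05. With median-of-ratios scaling 49.2% and 47.3% were above zero. Of 12 tested glutathione transferases 8 were above zero with SHP099 (6 with that scaling), with a median of 0.12 (0.01), and 12 in M-Shp2-/- against wild type (10), with a median of 0.43 (0.28). At an unadjusted p under 0.05 there were 2 with SHP099 and 3 in M-Shp2-/- libraries. *Gstm1*, the most abundant and a gene with close paralogs, had an FPKM of 213, 141 and 87.5 in wild-type, 292, 319 and 115 in M-Shp2-/- and 107, 107 and 91.6 in SHP099 libraries, so that M-Shp2-/- replicates 1 and 2 were above all other libraries and replicate 3 was not. *Gsta3* had the largest difference of M-Shp2-/- from wild type in the list (1.12, adjusted p = 0.455). Of 7 tested genes of cystine uptake and glutathione synthesis 6 were above zero with SHP099 (6 with that scaling), with a median of 0.38 (0.26) and 2 at an unadjusted p under 0.05. In M-Shp2-/- against wild type 6 were above zero (5), with a median of 0.25 (0.08) and 0 at an unadjusted p under 0.05. *Slc3a2*, the heavy chain of the cystine importer, was the most abundant of the list (0.25 with SHP099, adjusted p = 0.194). Of 13 tested targets of ATF4, a transcription factor of amino acid stress, 11 were above zero with SHP099 (10 with that scaling), with a median of 0.38 (0.24) and 7 at an unadjusted p under 0.05. In M-Shp2-/- against wild type 10 were above zero (8), with a median of 0.24 (0.08) and 1 at an unadjusted p under 0.05. *Trib3* had the largest difference with SHP099 (1.36, adjusted p = 0.0560) and *Phgdh* in M-Shp2-/- libraries (0.51, adjusted p = 0.409).

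The tested genes with the profiles most like *Gsto1* included *Cyb5r1*, *Nr1d2*, *Pag1* and *Fry*. Their root mean square difference from *Gsto1*, in centred log2(FPKM + 1) over the 9 libraries, was 0.13, 0.13, 0.15 and 0.16, beside a median of 0.64 over all other tested genes. *Cyb5r1* had an FPKM of 61.9, 90.5 and 88.6 in wild-type, 98.6, 91.2 and 176 in M-Shp2-/- and 227, 190.1 and 166 in SHP099 libraries. As in *Gsto1*, M-Shp2-/- replicate 3 was nearer to SHP099 replicate 3 than to the other libraries of its group. The likeness was ranked on these same libraries and is a description.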

How the data were processed

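Per the submitters' processing notes and the methods of the study, the authors called bases with CASAVA 1.8, aligned paired-end reads with HISAT2 2.0.4, counted reads per gene with HTSeq 0.9.1 and compared groups with DESeq on counts. The deposited values are FPKM, 1 column per library. The tool for FPKM, the genome build and the strand of counting are not given in the sources used here. A second table of gene spans was used only to check the build, and 91.8% of its spans with an entry were identical to GENCODE release M21 (GRCm38).

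Symbols and positions came from GENCODE M21, in which 353 of 54059 genes have no entry. FPKM multiplied by mean transcript length gave whole reads, within 0.05, for 96.2% to 96.7% of values of up to 50 reads (10% by chance). Groups were taken from the labels. The log2(FPKM + 1) of genes averaging 1 FPKM or more over the 9 libraries was fitted with limma 3.58.1 (lmFit, eBayes with a trend) in R 4.3.3 on the 6 libraries compared, with Benjamini-Hochberg adjustment over all 11450 genes. The pseudocount shrinks differences of low genes. The procedure was tested on simulated data. At an adjusted p of 0.05 in limma it recovered 63 to 69 of 100 genes with an absolute log2 difference of 1. With a difference of 2 it recovered 88 to 89 of 100. The simulation drew each gene independently, without shifts shared by a whole library. Tables and plots were made with Python 3.11.15, pandas 2.3.3, numpy 2.4.6 and matplotlib 3.10.9.

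The 10 genes and the lists were chosen with earlier results of these data known. Named are the 10 genes, *Ptpn11*, pathway genes passing an adjusted p of 0.05 in any comparison, in each pathway list the most abundant gene and that with the largest absolute log2 difference in each comparison with wild type, genes nearest to *Gsto1*, and in each marker list the most abundant gene and those at 0. *Csf1r*, *Adgre1*, *Cd68*, *Mertk* and the genes overlapping *Gclm* and *Mafg* were named after their values were seen. Of the nearest genes and the marker lists, 1 each is not reported here. Alternatives were other pseudocounts, filters and scalings, eBayes without the trend, all 9 libraries in 1 fit, the replicate number as a block, limma's voom on recovered reads, and each library left out.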

Additional observations from a re-analysis of the deposited data

How the results depend on the processing

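Values that differ from those reported are given here, and their causes were not tested. At the thresholds of the study, the number of genes in M-Shp2-/- against wild type (1) was 0 without the filter, without the trend, with the replicate block and with each library left out (0 to 0), 2 with all 9 libraries in 1 fit and 3 with median-of-ratios scaling. In SHP099 against wild type (19) it was 0 without the filter and with the block, 4 without the trend, 9 with voom and 0 to 26 with each library left out. Between M-Shp2-/- and SHP099 (0) it was 1 with all 9 libraries and 0 to 159 with each library left out.

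At an adjusted p of 0.05, M-Shp2-/- against wild type (10) gave 6 without the trend, 2 with the block and 1 to 8 with each library left out. SHP099 against wild type (797) gave 96 without the filter, 511 with median-of-ratios scaling and 47 to 1273 with each library left out. M-Shp2-/- against SHP099 (8) gave 17 at a mean FPKM of at least 5, 3 with all 9 libraries, 0 with the block, 14 with voom and 0 to 2277 with each library left out. Of the 9 genes (4 with SHP099) there were 0 without the filter, 2 with median-of-ratios scaling and 0 to 5 with each library left out, and between M-Shp2-/- and SHP099 (0) 0 to 4. Of the other pathway genes (13 with SHP099) there were 1, 6 and 0 to 24, and between M-Shp2-/- and SHP099 (0) 0 to 31.

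Over the 36 genes named by rule and their 3 comparisons, 1722 alternative values were computed, of which 1543 kept direction and side of the threshold, 118 no longer passed, 29 newly passed, 31 changed sign and 1, without a test, moved by more than the spread between replicates. With median-of-ratios scaling the sign changed in M-Shp2-/- against wild type for *Fth1* (-0.10) and *Cybb* (-0.15), with SHP099 for *Fth1* (-0.077), and between M-Shp2-/- and SHP099 for *Slc3a2* (-0.025) and *Fth1* (-0.025). With quantile normalization it changed for *Acod1* with SHP099 (0.074) and *Slc3a2* between M-Shp2-/- and SHP099 (-0.11). With each library left out, values ranged in M-Shp2-/- against wild type from -0.031 to 0.48 for *Slc7a11*, -0.061 to 0.33 for *Hagh* and -0.49 to 0.66 for *Trib3*. With SHP099 they ranged from -0.013 to 0.49 for *Slc7a11*, -0.15 to 0.035 for *Nfe2l2*, -0.0098 to 0.94 for *Gpx8* and -0.22 to 0.21 for *Acod1*. Between M-Shp2-/- and SHP099 they ranged from -0.13 to 0.085 for *Slc7a11*, -0.39 to 0.025 for *Nqo1*, -0.035 to 0.052 for *Slc3a2*, -0.25 to 0.75 for *Gpx8*, -0.11 to 0.20 for *Osgin1* and -0.035 to 0.027 for *Fth1*.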
